A study of Homo sapiens with 4 samples.

Results

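The miRNAs described here are miR-21-5p, miR-21-3p, miR-146a-5p, miR-146b-5p, miR-146b-3p and miR-155-5p, 6 of the 2656 human mature miRNAs counted in neurons made from embryonic stem cells. They were picked by name for their known place in TLR4 and NF-kB signalling under ethanol and not by a threshold on measured values, although earlier results of these data were known when they were picked. The cells were cortical interneurons differentiated from H1, an established human embryonic stem cell line, so all cultures derive from 1 line. Exposed cultures were kept in maturation medium with ethanol at about 50 to 100 mM for 7 days, followed by a day without ethanol, and unexposed cultures were kept for 7 days without ethanol. Each condition had 2 cultures and 2 small RNA libraries, and nothing else in treatment is stated to differ between them.

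MicroRNAs are short RNAs cut from a hairpin precursor, whose arms give a 5p and a 3p product, and usually 1 arm, the guide, is kept while the other, the passenger, is degraded. A guide finds its target mRNAs mainly through its seed, bases 2 to 8. TLR4 is a receptor that, once engaged, activates NF-kB through the signalling proteins IRAK1 and TRAF6, and ethanol is known to engage this route in glial cells of the brain. NF-kB induces transcription of MIR146A and MIR155. miR-146a and miR-146b dampen the pathway by repressing IRAK1 and TRAF6, miR-155 strengthens inflammatory responses by repressing inhibitors such as SOCS1, and miR-21, which represses PDCD4, is raised in many kinds of injury and inflammation.

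The mature sequences are shown with the seed in capitals, since the seeds set which of these miRNAs can share targets and the last bases set which can share reads. They were read from RefSeq on GRCh38.p14, which held 5 of the 6 (miR-21-3p is named only).

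hsa-miR-21-5p: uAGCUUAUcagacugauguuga

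hsa-miR-146a-5p: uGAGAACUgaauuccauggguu

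hsa-miR-146b-5p: uGAGAACUgaauuccauaggcug

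hsa-miR-146b-3p: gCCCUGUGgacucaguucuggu

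hsa-miR-155-5p: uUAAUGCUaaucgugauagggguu

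The miR-146 guides share the seed GAGAACU and their first 17 bases. Counted from 1 at the 5′ end, with the miR-146a-5p base first, they differ by G18A and U21C, and miR-146b-5p has 23 bases against 22, so a read that ends before position 18 cannot be assigned to either gene. The only other human miRNA with this seed in the table, miR-7153-5p, had 0 counts in all 4 libraries. miR-590-5p carries the seed of miR-21-5p, AGCUUAU, but had 1, 2, 1 and 4 counts. No other listed miRNA shares the seed of miR-155-5p or of miR-146b-3p.

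The precursors of miR-146a and miR-146b are shown with both arms in capitals, because the 5p arms of the pair are nearly the same while the 3p arms are not.

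MIR146A: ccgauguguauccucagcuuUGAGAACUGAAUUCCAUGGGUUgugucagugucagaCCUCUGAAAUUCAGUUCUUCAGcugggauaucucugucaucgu

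MIR146B: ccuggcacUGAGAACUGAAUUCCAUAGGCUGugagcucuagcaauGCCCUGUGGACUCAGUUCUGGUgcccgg

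MIR146A lies on chromosome 5 from 160485352 to 160485450 on the plus strand, inside an exon of the long noncoding RNA gene MIR3142HG, and MIR146B lies on chromosome 10 from 102436512 to 102436584, where GENCODE 29 places no other gene (both GRCh38). MIR21 lies on chromosome 17 from 59841266 to 59841337, inside a noncoding exon of 1 transcript of VMP1, a gene of autophagy. MIR155 lies on chromosome 21 from 25573980 to 25574044, inside an exon of its host RNA gene MIR155HG. The authors' counts were made on hg19 and carry no coordinates, so these positions were matched by name.

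The libraries held 12100425 to 24858230 counts on mature miRNAs, and both exposed libraries were deeper than both unexposed ones, so depth and exposure cannot be told apart in this design. The factors of TMM, which scales libraries on the assumption that most miRNAs do not change, ran from 0.846 in unexposed replicate 1 to 1.13 in exposed replicate 1. All 6 neuronal marker miRNAs were present, with a summed level of 215958 to 293100 CPM. CPM stands for counts per 1000000 counts of a library, scaled by TMM unless stated otherwise. Most of it came from miR-9-5p at 157331 to 253997 CPM and miR-128-3p at 29348 to 48805 CPM. miR-124-3p was at 2190 to 5405 CPM and miR-137-3p at 58.3 to 84.8 CPM. Of the 4 leukocyte and microglial markers, miR-142-3p and miR-223-3p had 0 counts in every library, miR-142-5p had 0 to 1 and miR-150-5p 1 to 11, and the list summed to 0.0848 to 0.476 CPM. The study describes some glial cells in such cultures, and markers of glia other than microglia were not read here. All 5 mesenchymal markers had counts and summed to 80.2 to 111 CPM, most of it from miR-143-3p at 794 to 1888 counts and miR-199a-3p at 281 to 726, with miR-145-5p at 3 to 6. The 6 pluripotency markers summed to 2.42 to 3.89 CPM, with miR-302b-3p at 21 to 31 counts and miR-367-3p at 0. Both endothelial markers were present and summed to 807 to 1021 CPM, of which miR-126-3p made up nearly all. The part of these other cell types in the results was not tested, and in bulk cultures fewer cells of a type and less RNA per cell cannot be told apart.

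Levels differed widely between the 6. miR-21-5p stood first by far, at rank 30 and 27 of all miRNAs with ethanol and 24 in both libraries without it. miR-146b-5p ranked 96 to 131, miR-146a-5p 222 to 287, miR-155-5p 410 to 459, miR-146b-3p 437 to 507 and miR-21-3p 625 to 741. The ranges of neighbours in this order did not overlap, except for miR-155-5p (4.96 to 7.12 CPM) and miR-146b-3p (3.65 to 5.17 CPM), although miR-155-5p was the higher of the pair within each library. These mature RNAs are of nearly equal length, 22 to 24 bases where the sequence was at hand, so CPM was not divided by length, and ligation efficiency, which differs between small RNA sequences, was not measured. Together the 6 made up 0.527% and 0.579% of the counts with ethanol and 0.595% and 0.807% without, and miR-21-5p alone was 92.8 to 94.9% of that sum.

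**Figure D1:**
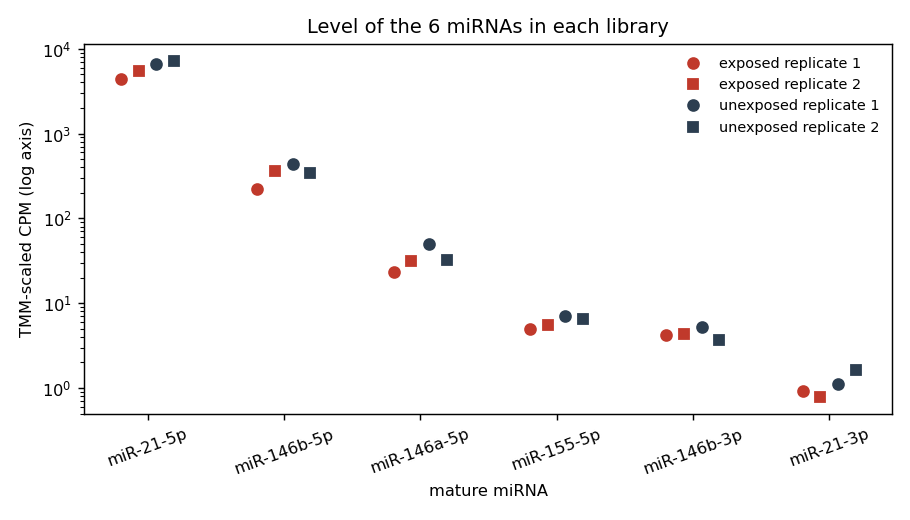
TMM-scaled CPM on a log axis for each of the 6 miRNAs, with 1 point per library (red, exposed; dark, unexposed; circles, replicate 1; squares, replicate 2). miR-21-5p lies between 4386 and 7201 CPM and miR-21-3p between 0.780 and 1.63 CPM, and the ranges of neighbouring miRNAs are apart except for miR-155-5p and miR-146b-3p, which overlap.

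To ask whether ethanol moved these miRNAs, the groups were set against each other in edgeR's quasi-likelihood test over the 863 miRNAs with enough counts, among which were all 6. The edgeR estimate of each of the 6 lay below 0, that is, lower in exposed cells, with a median log2 fold change of -0.45 against -0.010 over all tested miRNAs, of which 51.2% lay below 0. None passed the test: 0 of the 6 had an unadjusted P under 0.05, the study's threshold, in edgeR, limma-voom or DESeq2, where 4.52% of all tested miRNAs did in edgeR, and 0 had a fold change over 2 as well, against 2.32% of all. Adjusted over all 863 miRNAs, 0 of the 6 and 0 of all (0%) had p under 0.05 in edgeR. The estimates are not independent of each other, since arms share a precursor and the miR-146 guides share most of their sequence.

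miR-21-5p, the most abundant of them, was counted 110611 and 134146 times with ethanol and 76975 and 92662 times without. Scaled by TMM this was 4386 and 5511 CPM in exposed against 6525 and 7201 CPM in unexposed cells, or 4948 ± 795 against 6863 ± 478 CPM (SD, n = 2). Both exposed cultures lay below both unexposed cultures. The log2 fold change was -0.47 (standard error 0.24, 95% interval -1.02 to 0.075), a 1.39-fold lower level, with an unadjusted P of 0.0818 and an adjusted p of 0.922 in edgeR. An exact permutation test gave a two-sided p of 0.333, the smallest that 2 cultures against 2 can give. Without exposed replicate 1 the estimate was -0.32 and without exposed replicate 2 it was -0.64. Without unexposed replicate 1 it was -0.55 and without unexposed replicate 2 it was -0.43. Counting error was small beside these differences, the 95% Wilson interval of the unscaled share in exposed replicate 1 being 4948 to 5007 CPM. Intervals of this kind treat reads as independent draws and hold no spread between cultures. Reads without molecular identifiers are not independent molecules, so the intervals may be too narrow even for counting error.

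miR-21-3p, the passenger of the same precursor, had 23 and 19 counts with ethanol and 13 and 21 counts without. These were 0.912 and 0.780 CPM against 1.10 and 1.63 CPM after scaling, and the groups did not overlap. With so few counts the Wilson intervals of single libraries did overlap, from 0.489 to 1.19 CPM unscaled in exposed replicate 2 and from 0.545 to 1.60 CPM in unexposed replicate 1. The log2 fold change was -0.69 (standard error 0.38, 95% interval -1.56 to 0.18), with an unadjusted P of 0.103 (exact permutation 0.333) and an adjusted p of 0.922 in edgeR. It was -0.41 without unexposed replicate 2 and -0.95 without unexposed replicate 1.

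miR-146b-5p was the more abundant of the guides that repress IRAK1 and TRAF6, with 5605 and 8796 counts with ethanol and 5222 and 4443 counts without. Its level was 222 and 361 CPM in exposed and 443 and 345 CPM in unexposed cells. Here the groups overlapped, since exposed replicate 2 was above unexposed replicate 2, and exposed replicate 1 lay apart at the low end. The log2 fold change was -0.43 (standard error 0.28, 95% interval -1.09 to 0.23), with an unadjusted P of 0.167 (exact permutation 0.667) and an adjusted p of 0.922 in edgeR. Leaving out exposed replicate 1 brought it to -0.12, and leaving out unexposed replicate 2 to -0.63.

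miR-146a-5p, the NF-kB-induced form, was counted 587 and 763 times with ethanol and 583 and 420 times without. Since the guides share most of their sequence, reads of the more abundant miR-146b-5p may be among these counts, which was not tested. Scaled, it was at 23.3 and 31.3 CPM against 49.4 and 32.6 CPM. The groups did not overlap, but exposed replicate 2 and unexposed replicate 2 were close to each other and unexposed replicate 1 lay apart at the high end. The log2 fold change was -0.59 (standard error 0.31, 95% interval -1.29 to 0.12), with an unadjusted P of 0.0918 (exact permutation 0.333) and an adjusted p of 0.922 in edgeR. Without unexposed replicate 1 it was -0.27, and without unexposed replicate 2 it was -0.89, so the size of this estimate rested on which unexposed culture was kept. Adding up the counts of miR-146a-5p and miR-146b-5p removes an exchange of reads between them, though not reads counted for both. The log2 fold change of the sum was -0.45 (standard error 0.28), with an unadjusted P of 0.153 in edgeR.

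miR-146b-3p, the passenger of miR-146b, had 107 and 105 counts with ethanol and 61 and 47 counts without, or 4.24 and 4.31 CPM against 5.17 and 3.65 CPM. Both exposed values lay between the unexposed ones. Its log2 fold change was -0.042 (standard error 0.32, 95% interval -0.77 to 0.69), with an unadjusted P of 0.898 (exact permutation 1) and an adjusted p of 0.985 in edgeR. Scaled by library size alone, without TMM, its sign turned, to 0.13. That scaling moved the median of all tested miRNAs to 0.14, and relative to this median miR-146b-3p was at -0.016.

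miR-155-5p, the guide that represses SOCS1, was rare in these cultures, with 125 and 135 counts with ethanol and 84 and 83 counts without. Its level was 4.96 and 5.55 CPM in exposed and 7.12 and 6.45 CPM in unexposed cells. The replicates were close, with a pooled SD of 0.11 on the log2 scale against a median of 0.29 over 179 miRNAs within 2-fold of its level, and the groups did not overlap. The log2 fold change was -0.37 (standard error 0.29, 95% interval -1.04 to 0.30), with an unadjusted P of 0.238 (exact permutation 0.333) and an adjusted p of 0.922 in edgeR. The standard error from edgeR draws on the spread of all tested miRNAs, not of miR-155-5p alone.

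**Figure D2:**
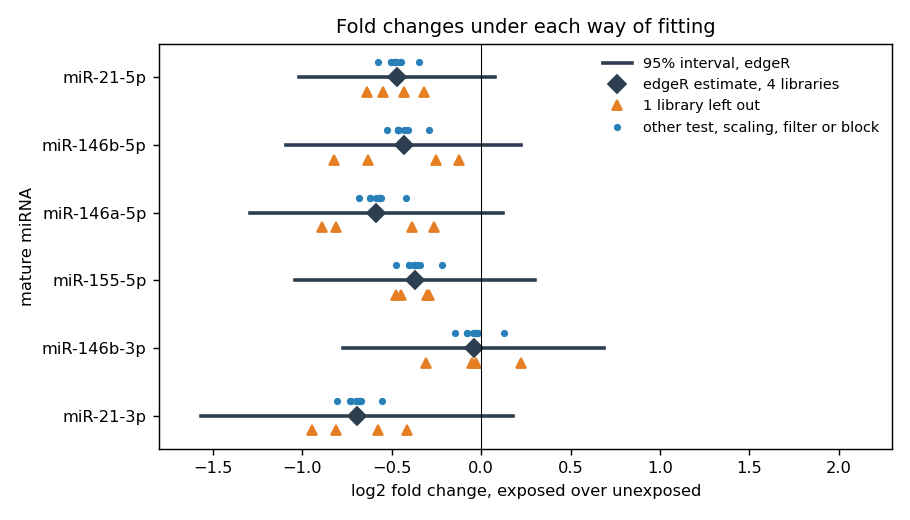
log2 fold change of exposed over unexposed cells for each of the 6 miRNAs, with edgeR's estimate (diamond) and its 95% interval (line), the 10 other fits on all 4 libraries (blue dots) and the fits with 1 library left out (orange triangles). All 6 intervals include 0, and the estimates lie below 0 in each fit except for miR-146b-3p, which was at 0.13 with library size only and at 0.22 without unexposed replicate 1.

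Exposed and unexposed libraries did not overlap for 4 of the 6, all lower in exposed cells, where this held for 14.6% of all tested miRNAs in that direction and for 33.4% in either direction. The 4 were miR-21-5p, miR-21-3p, miR-146a-5p and miR-155-5p. With library size only there were also 4, with miR-146b-5p in and miR-21-3p out, against 7.30% of all, and with upper quartile scaling 5, against 21.0%. The intervals place limits on what these cultures could have held: a doubling in exposed cells lay outside the 95% interval of each of the 6, while for miR-21-5p, miR-21-3p, miR-146a-5p, miR-146b-5p and miR-155-5p a halving lay inside it. The lower bound of miR-146b-3p was 0.586 of the unexposed level and its upper bound 1.61 times that level.

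**Figure D3:**
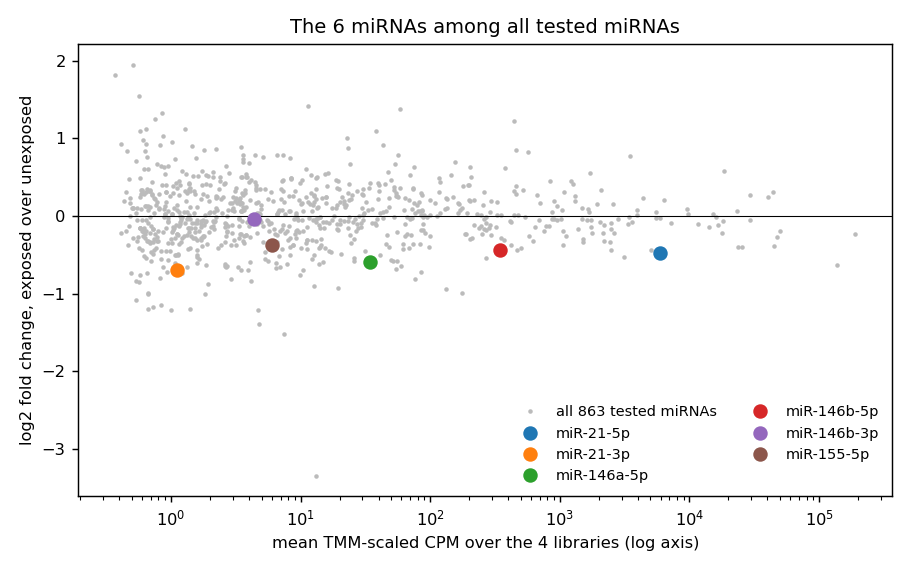
log2 fold change against mean TMM-scaled CPM over the 4 libraries (log axis) for the 863 tested miRNAs (grey) and the 6 described (coloured). The 6 lie between -0.69 and -0.042, inside the cloud, with miR-146b-3p near its centre and the other 5 below it.

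Beside miRNAs of like level the estimates of the miR-21 and miR-146 guides were of larger size than the typical miRNA. Over the 17 other tested miRNAs within 2-fold of miR-21-5p the median absolute log2 fold change was 0.086, and over the 60 within 2-fold of miR-146b-5p it was 0.22. For miR-146a-5p and miR-155-5p the same median was 0.24 over 110 and 179 miRNAs. The replicates of the miR-146 guides were also further apart than usual, with pooled SDs of 0.37 for miR-146a-5p and 0.39 for miR-146b-5p on the log2 scale against medians of 0.26 and 0.22 at their levels.

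Shares within a library do not depend on scaling. The passenger miR-21-3p was 0.0208% and 0.0142% of both miR-21 arms with ethanol and 0.0169% and 0.0227% without, which is 4412 to 7060 counts of the guide for each count of the passenger. The groups overlapped and so did all 4 Wilson intervals, the widest running from 0.0148 to 0.0346%. miR-146b-3p took a share of its precursor's arms that was far larger, 1.87% and 1.18% with ethanol and 1.15% and 1.05% without. Both exposed shares were the higher ones, but only exposed replicate 1 stood apart, with a Wilson interval of 1.55 to 2.26% against 0.975 to 1.43% in exposed replicate 2. The means were 1.53 ± 0.490% and 1.10 ± 0.0763% (SD, n = 2), with an exact permutation p of 0.333. The difference of the means was 0.426 percentage points, and 0.0789 without exposed replicate 1.

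Passengers of the other precursors were not found. miR-146a-3p and miR-155-3p had 0 counts in all 4 libraries, which allows up to 0.135 and 0.121 CPM with ethanol and 0.215 and 0.248 CPM without (3 counts each, unscaled). miR-146b-5p made up 90.5% and 92.0% of the miR-146 guide counts with ethanol and 90.0% and 91.4% without, and the groups overlapped (exact permutation p of 0.667). The ratio of miR-146a-5p to miR-146b-5p counts had a highest value 1.29 times its lowest over the 4 libraries, where the level of miR-146a-5p had a highest value 2.12 times its lowest and that of miR-146b-5p 1.99 times. Adjusted over the 3 shares, the exact permutation p was 0.667 for each.

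**Figure D4:**
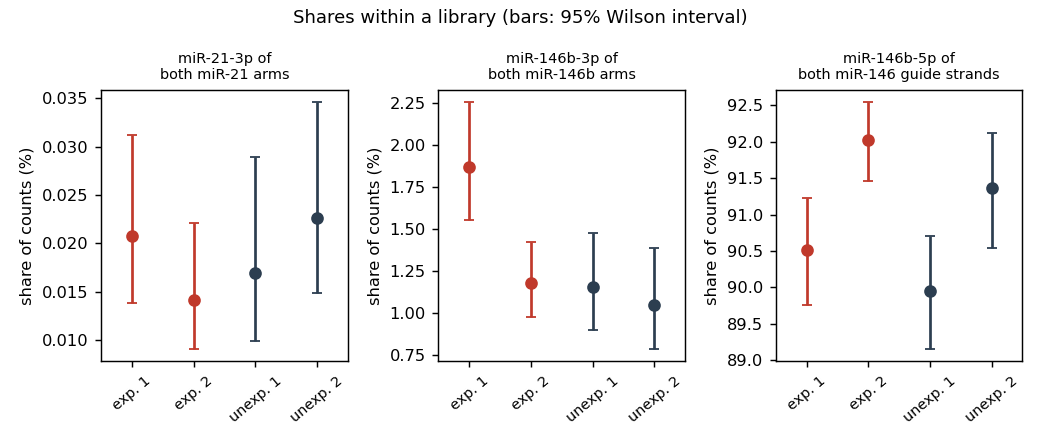
Share of counts in each library for miR-21-3p among both miR-21 arms, miR-146b-3p among both miR-146b arms and miR-146b-5p among both miR-146 guides, in percent, with 95% Wilson intervals as bars (red, exposed; dark, unexposed; axes do not start at 0). Exposed replicate 1 stands apart for miR-146b-3p at 1.87%, and in the other panels the groups overlap.

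Counts of miR-21-5p for each count of miR-146b-5p were 19.7 and 15.3 with ethanol and 14.7 and 20.9 without. This ratio separated the libraries not by exposure but into exposed replicate 1 with unexposed replicate 2, and exposed replicate 2 with unexposed replicate 1. Against miR-155-5p the ratio was 885 and 994 with ethanol and 916 and 1116 without, which also overlapped. Whether the fold changes of these miRNAs differ from one another was not tested beyond these ratios.

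The miRNAs with the most similar pattern were sought among those with a mean of at least 10 CPM, by the root mean square distance of centred log2 CPM over the 4 libraries, a measure that so few libraries leave loose. For miR-21-5p these were miR-15b-3p (distance 0.061 on the log2 scale), miR-548am-3p (0.075) and miR-421 (0.079), of 375 compared. For miR-146a-5p they were miR-320a-3p (0.041), miR-548ay-5p (0.055) and miR-92a-1-5p (0.064), and for miR-146b-5p miR-888-5p (0.056), miR-508-3p (0.088) and miR-641 (0.094). miR-155-5p lay nearest to miR-629-5p (0.039), miR-501-5p (0.054) and miR-500a-3p (0.056). miR-146b-3p lay nearest to miR-502-3p (0.026), miR-1287-5p (0.034) and miR-1246 (0.038), and miR-21-3p, on its few counts, to miR-370-3p (0.089), miR-363-3p (0.19) and miR-27b-5p (0.20).

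Other miRNAs described in NF-kB or TLR signalling were read from a list of 15, of which 14 passed the filter and miR-223-3p, a myeloid miRNA, had 0 counts. Of the 14, 7 had estimates above and 7 below 0, with a median log2 fold change of 0.093 against -0.010 over all tested miRNAs. At an unadjusted P under 0.05 in edgeR 1 was higher and 0 were lower, where 22 of the 863 tested miRNAs were higher and 17 lower (4.52%), and 0 passed an adjusted p of 0.05. The one was miR-124-3p, a neuronal miRNA that also quiets microglia, at 5405 and 3362 CPM in exposed against 2947 and 2190 CPM in unexposed cells. The log2 fold change came to 0.77 (standard error 0.30, unadjusted P 0.0316 in edgeR, adjusted p 0.922, exact permutation 0.333). Exposed replicate 1 had the highest level of miR-124-3p, well above exposed replicate 2. let-7i-5p, which represses TLR4, was at 20427 ± 5246 CPM in exposed and 26940 ± 7562 CPM in unexposed cells (SD, n = 2), lower by a log2 estimate of -0.40 (standard error 0.31). miR-9-5p, which represses NFKB1, was the most abundant miRNA of the cells and its estimate was -0.23 (standard error 0.34). miR-125b-5p, described as a repressor of TNF, was at 0.27 (standard error 0.33), and miR-132-3p, which is induced by CREB, at 0.19 (standard error 0.20). The unadjusted P of these 4 lay between 0.236 and 0.524 in edgeR. The lowest estimate of the list was that of miR-210-3p, at -0.65 (standard error 0.35, unadjusted P 0.0987 and adjusted p 0.922 in edgeR). Its level was 46.2 and 46.3 CPM in exposed against 97.3 and 47.6 CPM in unexposed cells.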

How the data were processed

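Small RNA libraries of 2 exposed and 2 unexposed cultures were analysed, grouped by their labels. The authors used the NEBNext small RNA kit, ran CAP-miRseq (trimming, alignment and counting) on the reads, and deposited a table of raw, unnormalized counts with 1 entry per mature miRNA. The labels name hg19. The pipeline version, the miRNA annotation release and the handling of reads that match several miRNAs are not given in the sources used here.

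From these counts, miRNAs were kept with filterByExpr (minimum count 10, minimum total 15; 863 kept) and scaled by TMM in edgeR 4.0.16 (R 4.3.3). The quasi-likelihood test had the group as its only term, p values were adjusted over all 863 by Benjamini-Hochberg, and the fits were tested on simulated data. Standard errors come from the F statistic. log2 CPM used 0.5 added to each count. The thresholds were the study's, an unadjusted P of 0.05 and a fold change of 2. The depth of 12100425 to 24858230 counts allows a share of 3 counts (0.121 to 0.248 CPM, unscaled) to be told from 0. Beside this, DESeq2 1.42.0 and limma-voom (limma 3.58.1) were run, and edgeR with other scalings and filters, a replicate block and leaving out each library. The labels call the libraries replicates, and the study states that treatments were done in duplicate. Whether the duplicates came from separate differentiations is not stated. P values therefore refer to the spread between cultures of 1 line, which edgeR estimates with help from the spread of all tested miRNAs. The members and lists were chosen with earlier results of these data known. The named miRNAs were the 6 members, the other arms of their precursors, miRNAs that share their seeds, an NF-kB and TLR list, cell type markers and the 3 nearest patterns of each member. miR-9-5p, miR-124-3p, miR-199a-3p and miR-223-3p are each on more than 1 list.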

Additional observations from a re-analysis of the deposited data

How the results depend on the processing

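Under the 10 other fits on all 4 libraries, the log2 fold changes of miR-21-5p, miR-21-3p, miR-146a-5p, miR-146b-5p and miR-155-5p stayed below 0, and miR-146b-3p turned to 0.13 with library size only. With the replicate block in edgeR, unadjusted P was under 0.05 for 0 of the 6 and for 25 of all tested miRNAs, against 39 without it. Deviations of same-numbered libraries had a weak negative correlation (-0.186 across 863 miRNAs), which cannot decide whether the numbers pair them. A crossed replicate block, added after seeing the data, gave 59 of all miRNAs and 1 of the 6 at an unadjusted P under 0.05. The 1 was miR-21-5p at -0.48 (P 0.0491 in edgeR). This block follows the sign of that correlation in the same data, so its counts are not independent support. With no filter on low counts, 1825 miRNAs were tested in edgeR instead of 863. Of these, 94 had an unadjusted P under 0.05, 49 also had a fold change over 2, and 6 had an adjusted p under 0.05. With the filter these numbers were 39, 20 and 0 of 863. Of the 14 tested from the NF-kB and TLR list, 2 had an unadjusted P under 0.05 without the filter. The number past P and fold change was 12 of 726 with CPM above 1 in at least 2 libraries. It was 11 of 719 with at least 10 counts in every library and 10 of 863 with DESeq2. The cause of these shifts was not tested. Unscaled CPM taken without the 3 most abundant miRNAs was 9423 for miR-21-5p, 542 for miR-146b-5p, 53.9 for miR-146a-5p, 9.58 for miR-155-5p, 6.90 for miR-146b-3p and 1.78 for miR-21-3p, which follows from the smaller total.

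With each library left out in turn, the log2 fold change ran from -0.64 to -0.32 for miR-21-5p, from -0.89 to -0.27 for miR-146a-5p, from -0.82 to -0.12 for miR-146b-5p, from -0.82 to -0.15 for both guides summed, from -0.95 to -0.41 for miR-21-3p, from -0.47 to -0.29 for miR-155-5p and from -0.31 to 0.22 for miR-146b-3p. In edgeR between 0 and 2 of the 6 passed an unadjusted P of 0.05, 1 without unexposed replicate 1 and 2 without unexposed replicate 2. Of the NF-kB and TLR list between 0 and 3 did, 0 to 1 with a fold change over 2 and 0 to 1 with an adjusted p under 0.05, and of all miRNAs 12 (without exposed replicate 1) to 109 (without unexposed replicate 2), 10 to 44 with a fold change over 2 and 1 to 18 with an adjusted p under 0.05. In these fits a lone library is assumed to vary like the other group. The difference in share, exposed minus unexposed, ran from -0.00561 to 0.00102 percentage points for miR-21-3p, from 0.0789 (without exposed replicate 1) to 0.773 for miR-146b-3p and from -0.140 to 1.36 for miR-146b-5p among the guides. With 13 to 23 counts per library, depth limits miR-21-3p most.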
